A study of Oryza sativa with 6 samples.

Results

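The genes described here are the SAPK kinases, the 2C protein phosphatases and the abscisic acid receptor that the deposited expression table lists for rice leaves. They were taken by annotation, in a choice made with earlier results of these data known. A gene was a member when its Swiss-Prot description held SAPK, protein phosphatase 2C or Abscisic acid receptor. LOC4352660 and LOC9272700 were also named in the rule by ID, and both have such a description. This rule was met by 11 of the 2995 listed genes, namely 1 SAPK kinase (SAPK9, LOC4352660), 9 2C phosphatases and 1 receptor (PYL3, LOC4328916). WYG7, the *japonica* cultivar Wuyungeng 7, was compared with PIF4v3m, 3 leaf libraries of each, and each library came from plants labelled 3 weeks old that were grown in pots under combined fluctuating light and drought. PIF4v3m was taken to be the study's *PIL13* promoter line, in which CRISPR/Cas9 removed a single base, the v3 SNP, upstream of *OsPIL13* in the WYG7 background and which is described as a knock-down, but the labels do not state this match. *OsPIL13* encodes a phytochrome-interacting factor, a bHLH transcription factor of light signalling. No unstressed library was part of the comparison, the edited genotype is represented by 1 line, and the time of day of collection is not given in the sources used here, so that effects of collection time and of the edited base cannot be told apart. The age is that of the labels, and the study's methods imply older plants. The study calls its replicates independent, but neither it nor the labels say that each library came from a separate plant, so that the p-values measure only the spread between these samples.

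Abscisic acid (ABA) is the hormone by which plants close stomata and switch on dehydration genes when water is short. In the core pathway, receptors of the PYR/PYL family bind ABA and then hold clade A 2C phosphatases in an inactive complex. SnRK2 kinases, which are called SAPK in rice (for stress/ABA-activated protein kinase), are kept inactive by those phosphatases and become active once they are released. The active kinases phosphorylate bZIP transcription factors, guard cell anion channels and respiratory burst oxidases. The 2C family is much wider than clade A, and other 2C enzymes act on MAP kinases, on metabolic enzymes and in growth. The comparison asks how the RNA of these genes differed between the promoter line and WYG7 under the same stress.

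Levels are given as FPKM, fragments counted per gene and scaled to transcript length and library size, as deposited by the authors. Because of the scaling to length, levels of different genes can be set side by side. Because the table holds only genes that the authors had already called between the lines, a gene's presence in it and a small p-value are not independent evidence of change, and genes that are not listed were not analysed here. The paper reports more called genes than are listed, so that an unlisted gene may have been called as well. Differences were tested with limma on log2(FPKM + 1), two-sided, with Benjamini-Hochberg adjustment over all 2995 listed genes and a threshold of 0.05. This scale understates the change of genes at low FPKM, and a ratio of mean FPKM is therefore given as well. In leaf RNA, fewer cells of a type and less RNA per cell cannot be told apart.

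At an adjusted p under 0.05, 6 of the 11 genes were higher and 5 were lower in PIF4v3m. Of all listed genes 45.8% were called higher and 54.1% lower, 99.9% in all, so that the passing of the test by each of the 11 is what any listed gene would show. The libraries of the lines did not overlap in any of the 11 genes, as for 99.4% of the table. The median absolute log2 fold change was 1.36 for the 11 genes and 1.10 for the table. The median log2 fold change with its sign was 0.93 for the 11 genes and -0.56 for the table. As few listed genes lie near 0, the sign of such a median shows only which direction held more genes. The value of 0.93 is that of PP2C 25, the smallest of the 6 rises, and is not read as a shift of the set. Within the set the kinase fell and the receptor rose, and of the 9 phosphatases 5 rose and 4 fell.

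**Figure D1:**
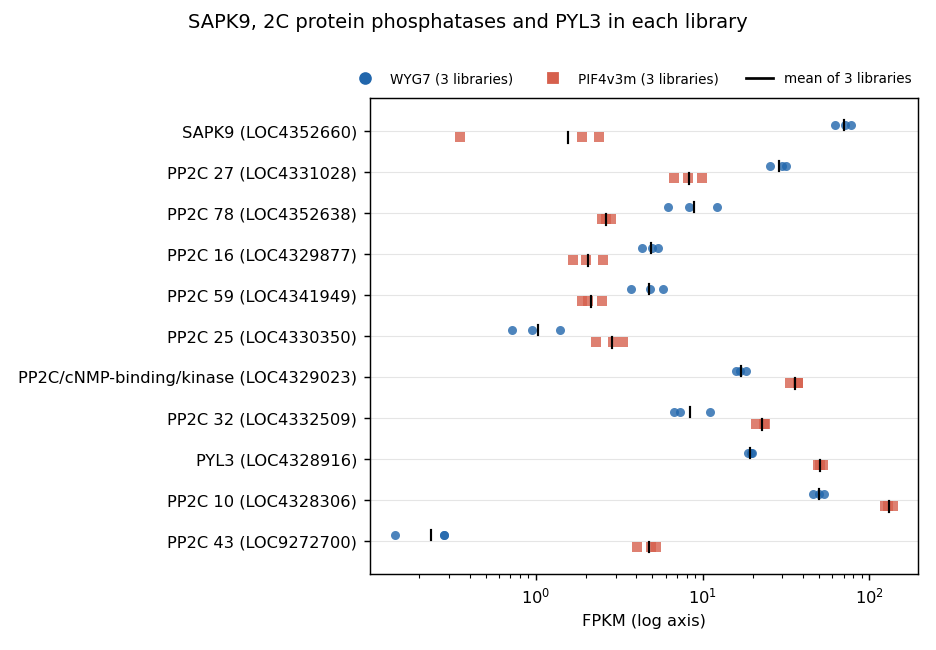
FPKM of each of the 11 genes (log axis) in the 3 WYG7 libraries (circles) and the 3 PIF4v3m libraries (squares), with black ticks at the means. SAPK9 goes from a mean of 70.5 in WYG7 to 1.55 in PIF4v3m, where replicate 3 stands below the others at 0.350, and PP2C 43 goes from 0.234 to 4.74.

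SAPK9 is a rice SnRK2 kinase known to be activated by ABA and by hyperosmotic stress, and the table marks its ID as SnRK2. Its FPKM was 71.5, 78.0 and 61.9 in WYG7 replicates 1, 2 and 3, and 2.40, 1.90 and 0.350 in PIF4v3m replicates 1, 2 and 3. Each WYG7 library was far above each PIF4v3m library. The means were 70.5 ± 8.08 in WYG7 and 1.55 ± 1.07 in PIF4v3m (SD, n = 3 each), a level 45.5 times as high in WYG7. The log2 fold change was -4.91 (SE 0.31, limma adjusted p = 3.58e-06), and only 5 of the 2995 genes had a more negative value. An exact two-sided permutation test of the 3 against 3 libraries gave p = 0.1, the smallest value that groups of this size allow. The PIF4v3m libraries differed among themselves, with a coefficient of variation of 69.0% against 11.5% in WYG7. The low value of replicate 3 made the fall larger and was not needed for it: without that library the log2 fold change was -4.50. The gene lies on chromosome 12 and overlaps LOC4352659 in the RefSeq annotation. As the sources used here do not say whether fragments were counted by strand, reads of an overlapping pair may not have been separated.

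RefSeq names 10 rice genes SAPK. SAPK9 was the only one of these in the table, and the other 9 were not analysed here, which is not evidence that they were unchanged. In WYG7 SAPK9 had the highest level of the 11 genes, above PP2C 10 at 49.9 FPKM, with no overlap between the libraries of these neighbours in the order. In PIF4v3m it had the lowest mean, and its libraries overlapped those of PP2C 16, the next gene above it.

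PYL3 belongs to the PYR/PYL family of soluble ABA receptors. Its FPKM was 19.6, 19.4 and 18.6 in WYG7 replicates 1, 2 and 3, and 49.4, 50.3 and 52.8 in PIF4v3m replicates 1, 2 and 3. The replicates lay close together within each line, and the lines were well apart. The means were 19.2 ± 0.518 and 50.8 ± 1.77 (SD, n = 3 each), a 2.64-fold higher level in PIF4v3m, with a log2 fold change of 1.36 (SE 0.08, limma adjusted p = 2.69e-06). Of the 11 genes it had the smallest coefficients of variation, 2.70% in WYG7 and 3.48% in PIF4v3m.

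Receptor and kinase thus stood in opposite order in the lines. The ratio of PYL3 to SAPK9 FPKM was 0.275, 0.249 and 0.301 in WYG7 and 20.6, 26.5 and 151 in PIF4v3m replicates 1, 2 and 3. In each WYG7 library the kinase was the more abundant transcript of the pair, and in each PIF4v3m library the receptor was. The height of the last ratio rests on the low SAPK9 value in PIF4v3m replicate 3. These were also the only 2 of the 11 genes that the authors' KEGG annotation placed in plant hormone signal transduction, a pathway with 82 genes in the table. A further gene, LOC4332568, carried the KEGG entry of the PYR/PYL family but has the Swiss-Prot description pathogenesis-related protein 1 and was not a member.

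**Figure D2:**
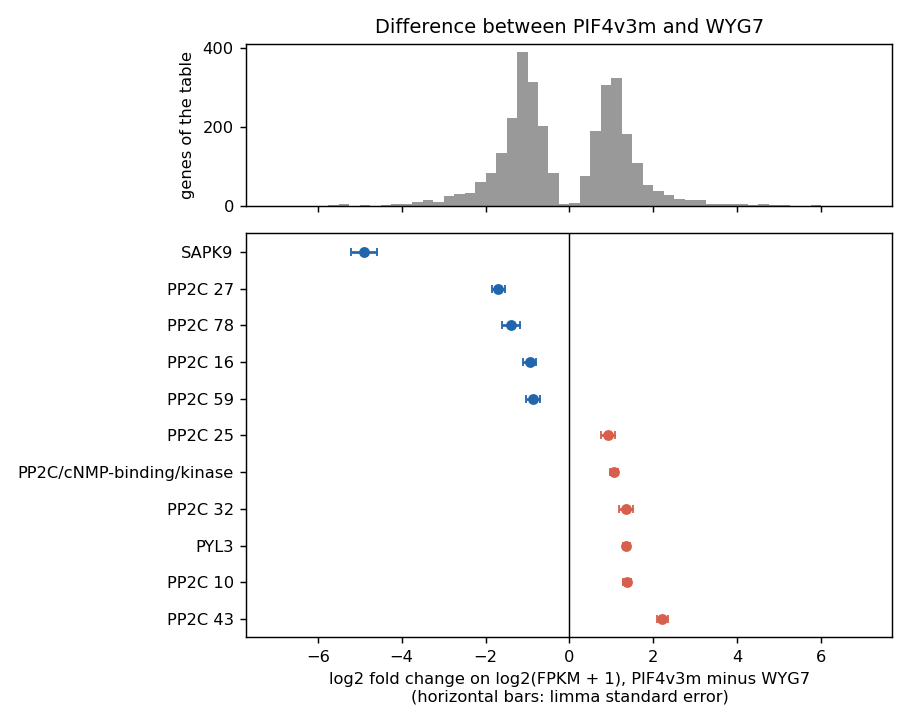
Upper panel: number of genes of the table by log2 fold change between PIF4v3m and WYG7, which leaves a gap around 0 because only called genes are listed. Lower panel: log2 fold change of the 11 genes with the limma standard error, from -4.91 for SAPK9 to 2.21 for PP2C 43.

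The 9 phosphatases were not of the ABA co-receptor kind by the deposited annotation. None of them was assigned to plant hormone signal transduction, and 0 of the 2995 listed genes carried the KEGG entry of the 2C phosphatases of the ABA pathway. All 9 held the Pfam 2C phosphatase domain, and no other gene of the table did. By KEGG entry, 3 were assigned to protein phosphatase 1L, 3 to pyruvate dehydrogenase phosphatase, 2 to the yeast phosphatases PTC2/3 and 1 to protein kinase A. RefSeq gives a PP2C name to 61 rice genes, of which 6 were in the table.

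The phosphatase with the greatest rise was PP2C 43 (LOC9272700, chromosome 4), with the KEGG entry of pyruvate dehydrogenase phosphatase, which in mammals reactivates the pyruvate dehydrogenase complex in mitochondria. Its FPKM was 0.280, 0.280 and 0.142 in WYG7 replicates 1, 2 and 3, and 4.92, 4.03 and 5.27 in PIF4v3m replicates 1, 2 and 3. It was close to 0 in each WYG7 library and at several FPKM in each PIF4v3m library. The means of 0.234 ± 0.0795 and 4.74 ± 0.638 (SD, n = 3 each) differed 20.3-fold. On the log2(FPKM + 1) scale the fold change was 2.21 (SE 0.13, limma adjusted p = 2.69e-06), and with 0.1 added in place of 1 it was 3.88. The exact two-sided permutation test gave p = 0.1, again the smallest possible value. It stood at place 99 among the increases of the table. How many reads stand behind the low WYG7 values cannot be read from FPKM.

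PP2C 25 (LOC4330350, chromosome 2) carries the same KEGG entry and also rose, from a low level. Its FPKM was 1.40, 0.721 and 0.945 in WYG7 and 3.31, 2.90 and 2.31 in PIF4v3m. The lowest PIF4v3m library was above the highest WYG7 library. The means were 1.02 ± 0.346 and 2.84 ± 0.503 (SD, n = 3 each), a 2.78-fold difference with a log2 fold change of 0.93 (SE 0.17, limma adjusted p = 0.000683). PP2C 78 (LOC4352638, chromosome 12), the third gene with this entry, went the other way. It had 12.1, 6.21 and 8.32 FPKM in WYG7 and 2.82, 2.62 and 2.49 in PIF4v3m. The WYG7 libraries were spread, with replicate 1 well above the others, and each of them was above PIF4v3m. Its mean was 3.36 times as high in WYG7 (8.89 ± 3.00 against 2.64 ± 0.163, SD, n = 3 each), and the log2 fold change was -1.40 (SE 0.21, limma adjusted p = 0.000250).

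Among the genes with the entry of protein phosphatase 1L, which in mammals restrains stress-activated MAP kinase signalling, PP2C 10 (LOC4328306, chromosome 2) was the most abundant. It had 53.5, 50.2 and 45.9 FPKM in WYG7 and 124, 139 and 130 in PIF4v3m. All PIF4v3m libraries were more than double any WYG7 library. The means were 49.9 ± 3.84 and 131 ± 7.24 (SD, n = 3 each), a 2.63-fold rise with a log2 fold change of 1.38 (SE 0.09, limma adjusted p = 4.72e-06). In PIF4v3m it had the highest level of the 11 genes, and PYL3 came next. PP2C 32 (LOC4332509, chromosome 3) rose by a like factor at a lower level, from 11.1, 6.74 and 7.32 FPKM in WYG7 to 23.3, 21.0 and 23.6 in PIF4v3m. Its WYG7 libraries were uneven, replicate 1 being the highest, and its PIF4v3m libraries were even. The ratio of means was 2.69 and the log2 fold change 1.36 (SE 0.17, limma adjusted p = 9.37e-05). PP2C 59 (LOC4341949, chromosome 6) fell, from 4.84, 3.69 and 5.78 FPKM in WYG7 to 2.07, 2.49 and 1.90 in PIF4v3m. It was 2.22 times as high in WYG7, with a log2 fold change of -0.86 (SE 0.17, limma adjusted p = 0.00108). This was the smallest change of the 11 genes on the log2(FPKM + 1) scale, but by ratio of means LOC4329023 changed less, 2.14-fold.

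Both genes assigned to PTC2/3, which in budding yeast dephosphorylate a stress MAP kinase, were lower in PIF4v3m. PP2C 27 (LOC4331028, chromosome 2) is known in rice to dephosphorylate a MAP kinase and to act against cold tolerance. It had 31.6, 29.7 and 25.2 FPKM in WYG7 and 6.70, 9.97 and 8.21 in PIF4v3m. The groups were far apart, and it was the largest fall among the phosphatases. The means were 28.8 ± 3.30 and 8.29 ± 1.64 (SD, n = 3 each), 3.48 times as high in WYG7, with a log2 fold change of -1.69 (SE 0.15, limma adjusted p = 1.61e-05). The gene annotated PP2C 16 (LOC4329877, chromosome 2) had 4.35, 4.94 and 5.39 FPKM in WYG7 and 1.67, 2.52 and 1.99 in PIF4v3m. It was 2.37 times as high in WYG7, with a log2 fold change of -0.95 (SE 0.15, limma adjusted p = 0.000334). Its identity is less certain than that of the others, as RefSeq gives the name OsPP2C16 to another gene, LOC107276004, which lies 3 genes further along and was not in the table. LOC4329877 also overlaps LOC4329876 in RefSeq, and reads of that pair may not have been separated.

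LOC4329023 (chromosome 2) is a composite enzyme, with a 2C phosphatase domain, cyclic nucleotide-binding domains and a kinase domain in 1 protein, and KEGG lists it under protein kinase A. Its FPKM was 16.7, 18.1 and 15.8 in WYG7 and 37.4, 37.3 and 33.4 in PIF4v3m. The lines were clearly separated and the replicates even. The means were 16.9 ± 1.18 and 36.0 ± 2.31 (SD, n = 3 each), a 2.14-fold rise with a log2 fold change of 1.05 (SE 0.10, limma adjusted p = 1.80e-05).

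**Figure D3:**
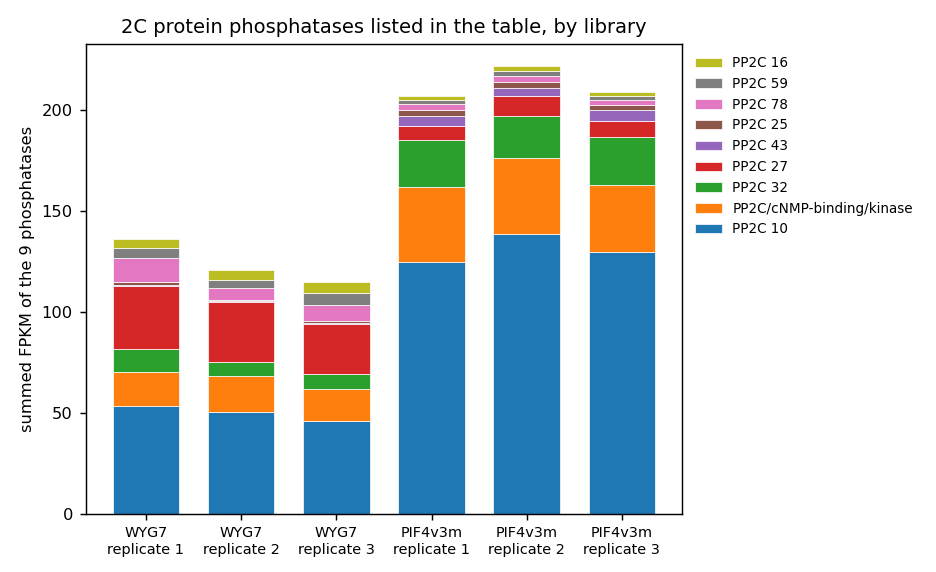
Stacked FPKM of the 9 listed 2C phosphatases in each library, from 0. The sum is 115 to 136 in the WYG7 libraries and 207 to 222 in the PIF4v3m libraries, and the PP2C 10 segment at the base takes up most of the difference.

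Summed over the 9 phosphatases, FPKM was 136, 121 and 115 in WYG7 and 207, 222 and 209 in PIF4v3m. The sum was higher in each PIF4v3m library, with means of 124 ± 10.9 and 212 ± 8.08 (SD, n = 3 each) and a ratio of 1.72. Without PP2C 10 it was 73.9 ± 7.41 and 81.4 ± 1.99, and the lines then overlapped, so that the higher sum rested on that gene. The sum of the 5 phosphatases that rose went from 76.4 ± 6.48 to 197 ± 5.90 FPKM. The sum of the 4 that fell went from 47.4 ± 4.79 to 15.1 ± 2.23 FPKM. These are descriptions of genes that had been called in advance and carry no test of their own.

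The make-up of the summed 2C FPKM differed as well. PP2C 10 made up 40.3% ± 1.17 of it in WYG7 and 61.6% ± 1.26 in PIF4v3m (SD, n = 3 each). PP2C 27, the second most abundant of the 9 in WYG7, went from 23.3% ± 1.34 to 3.89% ± 0.631. PP2C 43 went from 0.187% ± 0.0564 to 2.24% ± 0.373. The ratio of PP2C 10 to PP2C 27 was 1.69, 1.69 and 1.82 in WYG7 and 18.6, 13.9 and 15.8 in PIF4v3m. The pair were thus of the same order in WYG7 and about an order of magnitude apart in the edited line. In WYG7 the libraries of PP2C 78 and PP2C 32 overlapped in level, as did those of PP2C 16 and PP2C 59. In PIF4v3m PP2C 32 was above PP2C 78 in each library, PP2C 25 overlapped PP2C 78, and PP2C 59 still overlapped PP2C 16.

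Of the 11 genes 6 lie on chromosome 2, which holds 11.0% of the table's genes with a RefSeq position, and 2 lie on chromosome 12. The chromosome 2 genes did not move together: PP2C 25, PP2C 10, PYL3 and LOC4329023 rose, and PP2C 27 and PP2C 16 fell. Around each gene, the listed genes among the 5 before and the 5 after it in RefSeq order were read, a window chosen after the data were seen. Of 17 such neighbours 11 went in the direction of the member, 64.7%, against 63.4% over all genes of the table.

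A recurring arrangement was seen at PP2C 25 and PP2C 43, the pair of genes with the entry of pyruvate dehydrogenase phosphatase that rose. Each is preceded by a gene for a protein with PH, RCC1 and FYVE domains and then by a REVEILLE gene, a MYB-like factor of the family that acts in the plant circadian clock. In each case a calcium-dependent protein kinase gene follows, CPK5 next to PP2C 25 and CPK13 further along from PP2C 43. Parts of rice chromosomes 2 and 4 are known to be duplicates of each other. All 8 listed neighbours of this pair, 3 at PP2C 25 and 5 at PP2C 43, were higher in PIF4v3m, whereas CPK13 was not in the table.

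Among the genes of these arrangements the REVEILLE genes changed most. REVEILLE 1 (LOC4330349), 2 genes before PP2C 25, had 0.0584, 0.112 and 0.184 FPKM in WYG7 and 33.5, 29.4 and 35.0 in PIF4v3m, with a log2 fold change of 4.91 (SE 0.12, limma adjusted p = 9.35e-08). REVEILLE 2 (LOC4336779), 3 genes before PP2C 43, had 0.133, 0.214 and 0.185 FPKM in WYG7 and 77.9, 70.0 and 69.3 in PIF4v3m, with a log2 fold change of 5.96 (SE 0.10, limma adjusted p = 3.03e-08). Both were near 0 in WYG7 and abundant in PIF4v3m, well above the phosphatase beside them. The genes with PH, RCC1 and FYVE domains rose far less, and to almost the same levels. LOC4330348 on chromosome 2 went from 0.705 ± 0.0241 to 2.21 ± 0.271 FPKM, and LOC4336778 on chromosome 4 from 0.734 ± 0.0296 to 2.26 ± 0.151 FPKM (SD, n = 3 each). CPK5 (LOC4330351) went from 2.95 ± 0.378 to 6.10 ± 0.412 FPKM. Time of day, which moves REVEILLE genes in plants, is not given in the sources used here, and its part in these values was not tested.

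**Figure D4:**
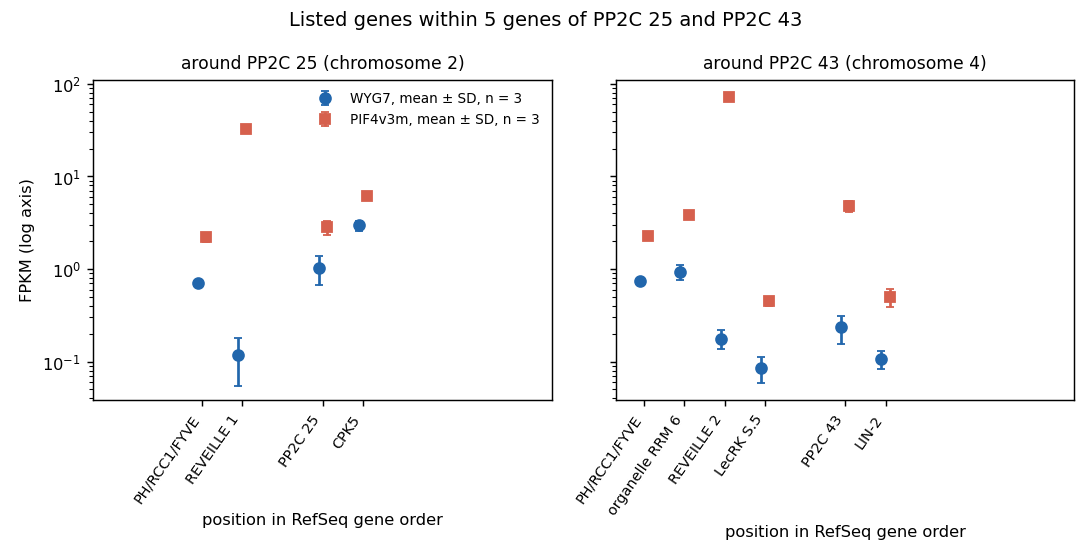
Mean FPKM (log axis, ± SD, n = 3) of the listed genes within 5 genes of PP2C 25 on chromosome 2 (left) and PP2C 43 on chromosome 4 (right), in RefSeq gene order, with WYG7 as circles and PIF4v3m as squares. Every gene shown is higher in PIF4v3m, the REVEILLE genes most, from 0.118 to 32.6 and from 0.177 to 72.4 FPKM.

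Elsewhere the neighbours gave no such picture. PP2C 32 has ESKIMO 1 (LOC4332508) beside it, a gene of cell wall acetylation known for freezing and drought phenotypes in Arabidopsis, which went from 1.28 ± 0.214 to 4.58 ± 0.224 FPKM (SD, n = 3 each). It also has MAP kinase kinase kinase 18 (LOC9266070) 3 genes away, which is induced by ABA in Arabidopsis and which went from 0.336 ± 0.112 to 1.30 ± 0.351 FPKM. Both rose as PP2C 32 did, while its remaining listed neighbour (LOC9271256) fell from 0.523 ± 0.0911 to 0.0644 ± 0.0356 FPKM. Of the 2 listed neighbours of LOC4329023, SRG1 (LOC4329022) rose with it and a gene described as RPP13-like (LOC4329027) fell. The single listed neighbours of SAPK9, PP2C 27, PP2C 59 and PP2C 10 moved against the member, and PP2C 78, PP2C 16 and PYL3 had no listed neighbour in the window.

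Around the 11 genes, 7 lists of other genes were read from the same annotation. All were matched by name. Some hold genes named for ABA metabolism or for kinds of protein tied to ABA response. Others, such as the CBL-interacting kinases, were matched by family name and need not act in ABA signalling. In each list all listed genes passed the test, as 99.9% of the table did, and only the directions are of use. ABA synthesis and breakdown had 6 genes, 5 lower and 1 higher. Zeaxanthin epoxidase (LOC4335984), which makes ABA precursors in the chloroplast, went from 611 ± 30.1 to 98.3 ± 7.79 FPKM (SD, n = 3 each), and the dioxygenase NCED1 (LOC4330451), of the rate-limiting step, from 641 ± 85.2 to 202 ± 16.4. Of the 3 listed ABA 8'-hydroxylases, the enzymes of ABA breakdown, 1 rose and the others fell. LOC4337528, named 8'-hydroxylase 2, went from 3.63 ± 0.428 to 8.52 ± 0.899 FPKM, whereas LOC4345810, which has the same name, went from 14.2 ± 2.24 to 3.46 ± 0.717 and 8'-hydroxylase 3 (LOC4347261) from 18.7 ± 1.18 to 6.74 ± 0.761.

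Downstream of the kinases, the table listed 1 ABA-related bZIP factor, ABSCISIC ACID-INSENSITIVE 5-like protein 3 (LOC4344334). It had 4.71, 2.94 and 3.68 FPKM in WYG7 and 1.09, 1.43 and 0.827 in PIF4v3m, and it fell, as SAPK9 did (log2 fold change -1.17, SE 0.18, limma adjusted p = 0.000271). Of 5 genes matched by name to kinds of stress protein known to respond to ABA, 3 fell and 2 rose. Whether these genes themselves respond to ABA was not tested. Among them GEM-like protein 4 (LOC4336456) fell from 3.27 ± 1.03 to 0.121 ± 0.0505 FPKM and abscisic stress-ripening protein 2 (LOC4335844) from 26.1 ± 6.23 to 10.5 ± 0.409. The late embryogenesis abundant proteins At5g17165 (LOC4336855) and D-34 (LOC107278683) rose, from 56.4 ± 4.52 to 160.0 ± 13.3 and from 2.13 ± 0.415 to 4.96 ± 0.214 FPKM.

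The list of guard cell ion transport and oxidases was split by kind. The 4 listed respiratory burst oxidases, which make apoplastic superoxide and are substrates of SnRK2 kinases in Arabidopsis, were lower. Among them homolog B (LOC4326027) went from 63.7 ± 2.46 to 17.4 ± 0.299 FPKM and a homolog E (LOC4345742) from 16.6 ± 9.10 to 1.36 ± 0.174. The 3 channel genes were higher. The S-type anion channel SLAH3 (LOC4326677) went from 0.159 ± 0.0447 to 1.21 ± 0.377 FPKM and the two-pore potassium channel a (LOC4334137) from 5.22 ± 0.603 to 23.5 ± 2.00 (SD, n = 3 each).

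Of 15 other SNF1-related kinases, most of them CBL-interacting kinases (CIPK) of calcium signalling, 8 were higher and 7 lower. CIPK31 (LOC4332665) went from 40.6 ± 2.68 to 178 ± 31.6 FPKM and CIPK22 (LOC4329833) from 10.3 ± 0.342 to 30.7 ± 1.91. CIPK10 (LOC4332786) went the other way, from 43.3 ± 1.33 to 17.2 ± 2.50 FPKM, as did CIPK12 (LOC4325613), from 10.2 ± 1.10 to 3.45 ± 0.690. SAPK9 fell further than any of the 15, of which the most negative log2 fold change was -1.64.

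All 3 Raf-like kinases rose, a group that in other plants includes activators of SnRK2 kinases. HT1 (LOC9271125), named for a kinase of stomatal CO2 response in Arabidopsis, went from 1.18 ± 0.0121 to 4.65 ± 0.404 FPKM, and a CTR1 (LOC107278404), named for a negative regulator of ethylene signalling, from 11.0 ± 1.18 to 23.3 ± 1.81 (SD, n = 3 each). Of 5 protein phosphatases outside the 2C family 3 rose and 2 fell. Tyrosine phosphatase DSP2 (LOC4340447) went from 4.11 ± 0.0878 to 10.8 ± 0.980 FPKM. The B alpha subunit of phosphatase 2A (LOC9266142) went from 8.35 ± 0.545 to 18.4 ± 1.18 FPKM and the phosphatase 7 long form homolog (LOC107277593) from 1.81 ± 0.439 to 0.322 ± 0.0567. Shewanella-like phosphatase 2 (LOC4350234) went from 0.637 ± 0.104 to 0.236 ± 0.0608 FPKM.

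**Figure D5:**
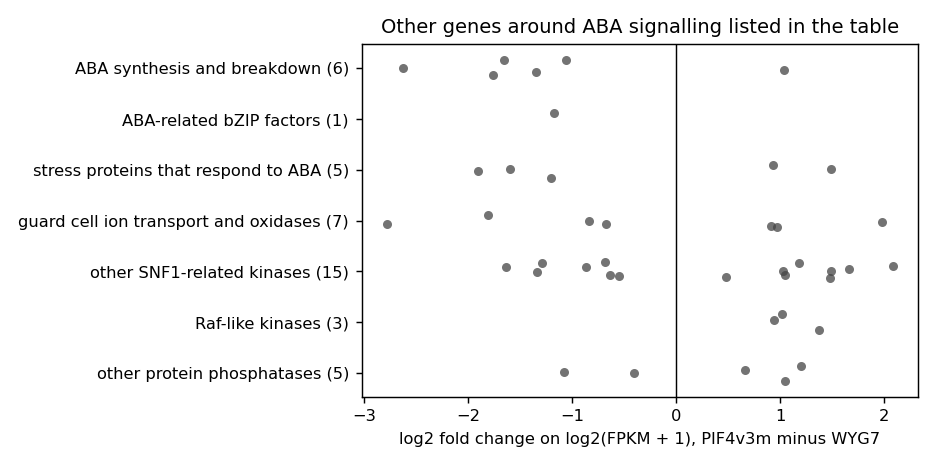
Log2 fold change on log2(FPKM + 1) between PIF4v3m and WYG7 of each listed gene in the 7 lists of other genes, with the number of genes in parentheses (vertical scatter within a row is only for legibility). Some lists were matched by kinase or phosphatase family name only. ABA synthesis and breakdown lies mostly left of 0, the 3 Raf-like kinases lie right of 0, and the other SNF1-related kinases lie on both sides.

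Genes matched by name to cell type marker terms differed between the lines as well. The 10 listed leaf mesophyll markers summed to 13812 to 14602 FPKM in the WYG7 libraries and 6791 to 9068 in the PIF4v3m libraries, with 5 higher and 5 lower. Highest in WYG7 were chlorophyll a-b binding proteins 1, CP29.1 and 2, which all fell. They went from 5380 ± 443 to 791 ± 130, from 3409 ± 140 to 1027 ± 169 and from 2811 ± 281 to 408 ± 163 FPKM (SD, n = 3 each). Photosystem II 10 kDa polypeptide (LOC4342395) fell from 109 ± 13.6 to 1.24 ± 0.316 FPKM. Rubisco small chain A (LOC4352016) rose from 1104 ± 229 to 2850 ± 415 FPKM, and chloroplastic fructose-1,6-bisphosphatase (LOC4341770) from 15.5 ± 2.07 to 33.4 ± 0.991. Photosystem I subunits V, psaK and N also rose. They went from 289 ± 36.4 to 719 ± 81.1, from 721 ± 40.8 to 1539 ± 216 and from 335 ± 45.1 to 678 ± 37.1 FPKM. The 4 genes matched to the root terms summed to 24.8 to 28.4 FPKM in WYG7 and 43.8 to 48.4 in PIF4v3m, 2 higher and 2 lower. Casparian strip membrane protein 2 (LOC107276110) went from 6.03 ± 0.705 to 22.5 ± 3.12 FPKM. The others were Scarecrow-like proteins, matched by name only, which need not mark root. Scarecrow-like protein 6 (LOC4330231) rose from 9.63 ± 0.525 to 19.4 ± 0.758 FPKM. Scarecrow-like proteins 3 and 9 fell, from 7.03 ± 1.38 to 2.13 ± 0.461 and from 4.52 ± 0.912 to 2.12 ± 0.196. The guard cell terms matched only EPIDERMAL PATTERNING FACTOR-like protein 2 (LOC4342336), at 1.23 ± 0.0928 and 0.503 ± 0.173 FPKM (SD, n = 3 each). It was matched by name only, and its value is not read as one of guard cells. FAMA, SPEECHLESS, MUTE, SLAC1 and MYB60, which are known for guard cells or their lineage, were not listed. The part of cell composition in the values of the 11 genes was not tested.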

How the data were processed

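Leaf RNA of 3 WYG7 and 3 PIF4v3m libraries was analysed. The authors deposited FPKM per gene and library, beside columns of their own comparison, log2 fold changes and FDR values (adjusted p-values). These columns served only to show that every one of the 2995 listed genes lay under an FDR of 0.01 and was changed by at least 1 on the log2 scale. The tools behind the FPKM are not settled: STAR, Cufflinks and DESeq2 are named in the paper, whereas StringTie 1.3.0, HISAT2 2.0, Bowtie 0.12.2 and a mouse build, mm8, appear in the processing notes of the submitters. Low FPKM values did not give whole reads, so reads per gene are unknown; the supplement lists clean reads per library, which were not used here. The lines were compared on log2(FPKM + 1) by limma (version 3.58.1, under R 4.3.3), with a trend of variance on mean and Benjamini-Hochberg adjustment. A minimum mean FPKM of 0.01 removed no gene. The fit was also run on simulated data in which most genes were unchanged. As the table holds only called genes, that run does not vouch for the p-values given here. The members and lists were chosen with earlier results of these data known. From each list, in each direction, up to 2 called genes with the smallest p were to be named; markers were summed, and only some are named. Short names such as PP1, HT1 and Raf were matched as whole words, so that RPP13-like proteins were not taken. Gene order and RefSeq names came from assembly ASM3414082v1, which matched 2761 IDs. Alternatives covered the pseudocount, filter, scaling, trend, library weights, replicate block, threshold and each library left out.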

Additional observations from a re-analysis of the deposited data

How the results depend on the processing

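None of the 11 genes changed direction or lost its call in any of the 176 values computed under other pseudocounts, filters, scalings, weights and thresholds, with the replicate number as a block and without single libraries, and 6 higher and 5 lower was the count each time. The table was as stable: at an adjusted p under 0.01, 1343 genes were higher and 1589 lower, against 1373 and 1619 in the main fit. As every listed gene had been called in advance, this stability is not a trait of the 11 genes. The log2 ratio of the summed 2C FPKM, 0.78 as deposited, was 0.62 after quantile normalization, 0.93 when each library was rescaled to the same total over the table and 0.14 without PP2C 10. That of the receptor, 1.40 as deposited, was 1.16 and 1.55 under the same scalings. These scalings moved the median of the table by 0.23 and -0.39, the second of them also changing what an added 1 FPKM is worth. Without single libraries the log2 ratio of summed FPKM ranged from -5.97 to -5.03 for SAPK9, from 0.73 to 0.85 for the phosphatases and from 1.37 to 1.42 for the receptor. The share of neighbours in the member's direction was 90% in a window of 3 genes (66.0% over the table) and 58.1% in a window of 10 (59.9%), windows added after the data were seen. The 90% stands for 9 of only 10 neighbours, with 3 of the 9 at PP2C 25 and 3 at PP2C 43, and is not read as an excess.

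The replicate numbers gave no sign of pairing the libraries. For this, the deviations of each library from the mean of its line on log2(FPKM + 1) were correlated over the genes. Same-numbered libraries gave -0.07, 0.00 and -0.10. With the replicate block 1372 genes of the table were higher and 1618 lower, and without single libraries 1361 to 1371 and 1610 to 1618. With a single line per genotype, no unstressed leaves, no unchanged genes in the table and no read counts per gene, the values describe these libraries, and the precision of low values such as PP2C 43 in WYG7 is unknown. Library weights estimated by limma were 0.958 to 1.53 except for WYG7 replicate 1, at 0.459.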
